A study of Homo sapiens with 6 samples.

Results

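The genes described here are NFE2L2, which encodes the transcription factor NRF2, its inhibitor KEAP1, and 7 genes that NRF2 is known to control, namely GCLC, GCLM, SLC7A11, TXNRD1, SRXN1, HMOX1 and NQO1. Members were chosen by name, by matching the stable part of each Ensembl identifier to these symbols, and 9 of the 20422 genes in the count table are members. RNA-Seq was performed on HepG2, an established human liver cancer cell line, in 3 libraries of control cells (NC) and 3 libraries of cells overexpressing the Flag-tagged microprotein APPLE (ORF-Flag), and the comparison asks how APPLE overexpression changes the transcriptome. The sample labels describe vector and ORF-Flag plasmids introduced into HepG2, while the methods of the study describe stable lines made with lentiviral vectors and selected with puromycin, so both forms of delivery are given here. The sources do not say whether the 3 libraries of a group came from separate cultures, so p-values measure the spread between these libraries, which may be technical. Replicates 1, 2 and 3 of NC held 20081203, 24907524 and 30088457 counts in all, and those of ORF-Flag held 26866148, 17494668 and 27015836. Levels are given as CPM, the counts of a gene per 1000000 counts of its library, with each library total adjusted by a TMM factor. The level of the construct was not analysed here, so the labels were not checked against it.

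NRF2 is a bZIP transcription factor that is made continuously and, in unstressed cells, bound by KEAP1, which presents it to a CUL3 ubiquitin ligase for degradation. Oxidants and electrophiles modify cysteines of KEAP1, NRF2 then accumulates, pairs with a small MAF protein and binds antioxidant response elements in genes of glutathione synthesis, thioredoxin recycling, heme breakdown and detoxification. In liver these genes serve the handling of reactive metabolites, and because NRF2 is controlled largely at the level of protein, the mRNA of NFE2L2 does not by itself measure its activity.

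The HepG2 label was checked against marker genes. All 12 hepatocyte markers were detected in every library, with a summed level between 30180 and 31520 CPM, and APOB, which had the highest mean of them, lay between 7311 and 8152 CPM. In ORF-Flag replicate 1 ALB was higher, with 7586 CPM against 7311 for APOB. Of these 12 genes, 2 rose in ORF-Flag and 0 fell in edgeR's quasi-likelihood test with Benjamini-Hochberg adjustment, beside 2.47% and 1.98% of all tested genes. At an unadjusted p below 0.05 there were 5, with 4 higher and 1 lower, beside 18.5% of all tested genes. All ORF-Flag libraries lay above all NC libraries in 4 of the 12, beside 11.5%, and below them in 0, beside 10.9%. The genes that rose were APOA2, with a log2 fold change of 0.16 with a standard error of 0.04 (adjusted p = 0.0092), and FGB with 0.14 (standard error 0.04, adjusted p = 0.023). APOA2 did not pass once NC replicate 2, ORF-Flag replicate 2 or ORF-Flag replicate 3 was left out (adjusted p up to 0.0757), and FGB passed in only 1 such fit, the one without NC replicate 3 (adjusted p up to 0.117 in the others). The 6 fibroblast markers summed to between 0.632 and 1.04 CPM, with PDGFRB the most abundant at 9 to 26 counts and DCN at 0 counts in every library. The 5 endothelial markers summed to 4.75, 4.16 and 5.01 CPM in NC and to 6.555, 5.515 and 6.26 CPM in ORF-Flag, higher in every ORF-Flag library, with PECAM1 the most abundant at 90 to 162 counts and KDR and TEK at 0 in every library. None of the tested fibroblast and endothelial markers, 1 of each list, passed the edgeR test, DESeq2 or limma. Of these genes 1, PECAM1, had an edgeR unadjusted p below 0.05, beside 18.5% of all tested genes, with a log2 fold change of 0.39. The 6 leukocyte markers summed to 1303, 1444 and 1439 CPM in NC and 1533, 1635 and 1533 CPM in ORF-Flag. This sum was nearly all LYZ, the gene of lysozyme, which rose with a log2 fold change of 0.17 with a standard error of 0.04 (edgeR adjusted p = 0.011, lost without ORF-Flag replicate 2 at 0.0998), while PTPRC and CD3E, which define leukocytes and T cells, had 0 counts in every library. Of the 4 tested leukocyte markers 1 rose and 0 fell, beside 2.47% and 1.98% of all tested genes. The exons of LYZ overlap AC020656.1 on the other strand by 599 bases, and the strand setting of the counting is not given. A count of 0 allows up to 3 counts, or between 0.0997 and 0.171 CPM in these libraries, a limit for counting error only. These are bulk samples, in which fewer cells of a type and less RNA per cell cannot be told apart. The part of these markers in the results below was not tested.

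Among the members, GCLM fell in ORF-Flag to 0.885 of its NC level, and the other 8 did not pass the test. All 9 members were counted deeply enough to be among the 12386 genes tested with edgeR's quasi-likelihood test. At a Benjamini-Hochberg adjusted p below 0.05, 1 of 9 members was lower in ORF-Flag, where 1.98% of all tested genes were, and 0 of 9 were higher, where 2.47% were. DESeq2, limma-trend and limma-voom also called 0 members higher, and on the lower side limma-trend and limma-voom called GCLM while DESeq2 called 0. At an unadjusted p below 0.05 there were 4 of 9 members, GCLC, GCLM and HMOX1 on the lower side and SLC7A11 on the higher side, beside 18.5% of all tested genes in either direction. All ORF-Flag libraries lay above all NC libraries in 1 member, SLC7A11, beside 11.5% of tested genes, and below them in 2 members, GCLM and HMOX1, beside 10.9%. The median log2 fold change was -0.03 over the 9 members and -0.0012 over all tested genes. The 95% confidence interval lay within a 1.2-fold difference in either direction for 7 of 9 members and for 60.2% of all tested genes. Over the members, the interval bounds reached from 0.826-fold for GCLM to 1.26-fold for SLC7A11. Over the whole table, 306 genes rose and 245 fell, and these 551 calls became 267 without NC replicate 2, 1058 without NC replicate 3, and 300, 278 and 199 without ORF-Flag replicates 1, 2 and 3.

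**Figure D1:**
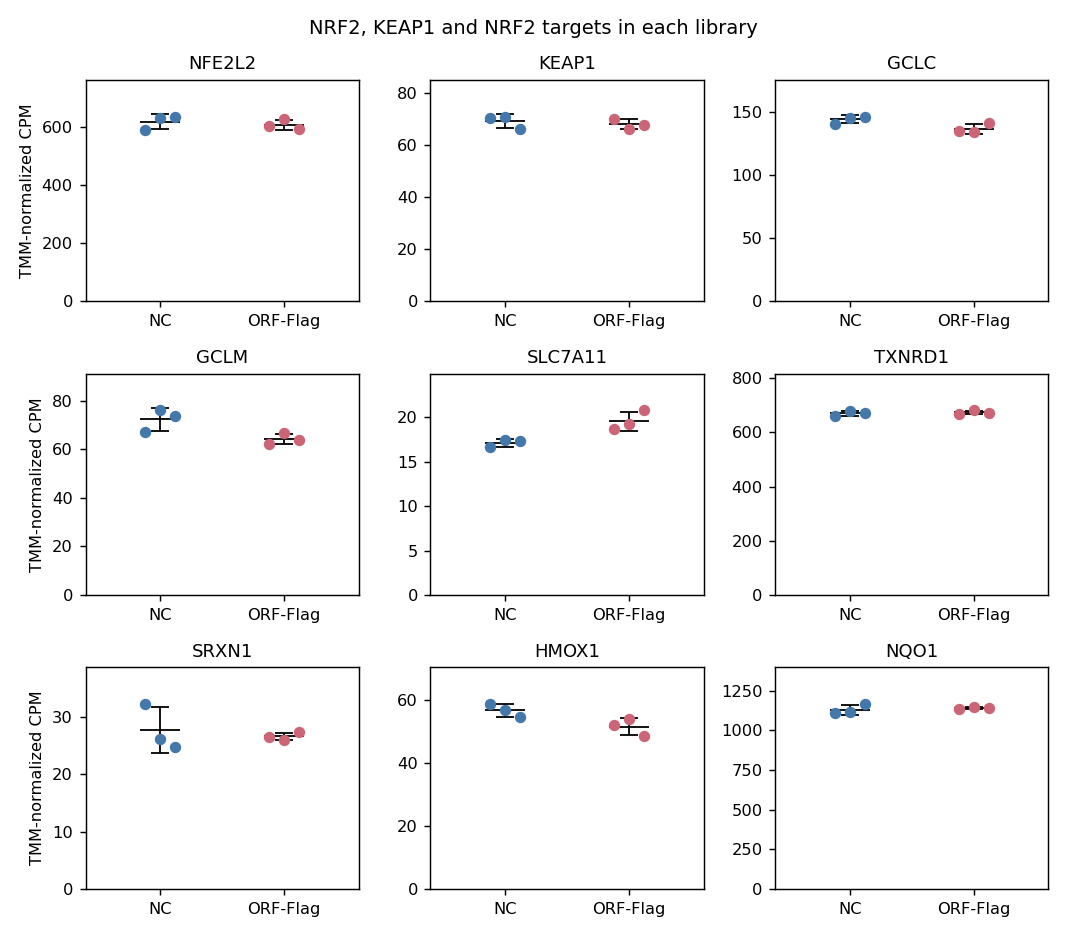
TMM-normalized CPM of each member in each library (points, left to right replicates 1, 2 and 3), with the mean and SD of each group of 3 (bars), on axes that start at 0. The ORF-Flag libraries lie below the NC libraries for GCLM and HMOX1 and above them for SLC7A11, and the groups overlap for the other 6 genes.

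Antioxidant response elements share the core TGACNNNGC, where N is any base, and this core and a longer form, the core followed by A, were searched on both strands of the RefSeq promoter windows (GRCh38.p14), which run from 250 bases before to 50 bases after an annotated gene start. Each match of the longer form is also a match of the core, and its TGAC is shared with the binding sequences of AP-1 and of small MAF proteins. The core occurred in 13.3% of 35116 windows and the longer form in 3.2%. Of the 9 members, 7 had an entry, with 10 windows in all. The core was found for 3 of these 7 genes, GCLM, KEAP1 and TXNRD1, and for 16.1% of all 27305 genes with a window. The longer form was found for the same 3 genes and for 3.9% of all genes. The windows of NFE2L2, GCLC, SRXN1 and NQO1 did not hold these letters. Sequence outside the windows was not searched, so an element farther from the start would have been missed. SLC7A11 and HMOX1 had no entry. The matches are shown because they mark the only called member, GCLM, beside KEAP1 and TXNRD1, which carry the same core and did not pass the test. Each stretch is 29 bases on the strand of its gene, 5′ to 3′, with the core, or its reverse complement where it lies on the other strand, in capitals. Distances are to the RefSeq start of the window that holds the match. KEAP1 and TXNRD1 each have 2 windows, at an outer and an inner start, and a match before the inner start lies inside the gene as annotated.
GCLM, chr1:93909446-93909474, minus strand, 34 bases before the start: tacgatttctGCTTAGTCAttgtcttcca
KEAP1, chr19:10502784-10502812, minus strand, 31 bases before the inner start: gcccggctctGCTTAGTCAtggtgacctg
KEAP1, chr19:10502807-10502835, minus strand, 54 bases before the inner start: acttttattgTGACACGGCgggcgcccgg
TXNRD1, chr12:104286920-104286948, plus strand, 102 bases before the inner start: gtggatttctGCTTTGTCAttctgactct
TXNRD1, chr12:104215670-104215698, plus strand, 99 bases before the outer start: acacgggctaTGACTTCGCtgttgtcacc
The core reads TGACTAAGC in GCLM and in the nearer of the KEAP1 matches, and TGACAAAGC in the first of the TXNRD1 stretches above. A further match of TXNRD1, 8 bases before the outer start, reads TGACGGAGC. A match describes the letters of a window and was not measured as a bound site.

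NFE2L2 and KEAP1, the factor and its inhibitor, differed between the groups by less than the spread between libraries. NFE2L2 (chr2:177227595-177392697, minus strand, GENCODE v29 on GRCh38) had 589, 633 and 636.5 CPM in the NC libraries and 605, 628 and 595 CPM in the ORF-Flag libraries. The lowest value belonged to NC replicate 1, and the ORF-Flag values lay within the range of the NC values. The log2 fold change was -0.03 (standard error 0.03, 95% interval -0.10 to 0.05, edgeR adjusted p = 0.77). KEAP1 (chr19:10486120-10503741, minus strand), the adaptor that holds NRF2 for degradation, had 70.4, 70.8 and 65.9 CPM in NC and 69.8, 66.1 and 67.7 CPM in ORF-Flag. The groups overlapped, with the lowest and the highest value both in NC, and the log2 fold change was -0.02 (standard error 0.04, 95% interval -0.11 to 0.07, edgeR adjusted p = 0.87). Within a library, the log2 ratio of NFE2L2 to KEAP1 counts was 3.17 ± 0.104 (SD, n = 3) in NC and 3.17 ± 0.0719 (SD, n = 3) in ORF-Flag, with a two-sided exact permutation p of 1.0. In the annotation 1054 exonic bases of NFE2L2 overlap AC019080.1 on the same strand, and reads from these bases could have been dropped or split.

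Of 21 partners and regulators of NRF2, 20 were tested. None passed an adjusted p below 0.05 in edgeR, DESeq2, limma-trend or limma-voom, and 3 had an unadjusted p below 0.05 in edgeR, 2 higher and 1 lower, beside 18.5% of all tested genes. In 5 of the 20 genes every ORF-Flag value exceeded every NC value, beside 11.5% of all tested genes, and in 1 the reverse held, beside 10.9%. Their median log2 fold change was 0.02. CUL3, the scaffold of the ligase that degrades NRF2, had 134.1 to 147.4 CPM over the 6 libraries and a log2 fold change of 0.02 (edgeR adjusted p = 0.85). MAFG, a small MAF partner of NRF2, had 161 to 263 counts per library and a log2 fold change of -0.13 (edgeR adjusted p = 0.54). BACH1, a repressor that competes with NRF2 for the same elements, had 29.03 to 30.9 CPM and a log2 fold change of 0.05 (edgeR adjusted p = 0.73). SQSTM1, the autophagy receptor p62 that binds KEAP1, was the most abundant gene of the list, with 404 to 425.6 CPM in NC and 426.5 to 442 CPM in ORF-Flag and a log2 fold change of 0.06 (edgeR adjusted p = 0.34).

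Glutamate-cysteine ligase makes the first and rate-limiting step of glutathione synthesis, and its modifier subunit GCLM fell in ORF-Flag while its catalytic subunit GCLC did not pass the test. GCLM (chr1:93885205-93909456, minus strand), the gene of the first stretch above, had 66.9, 75.95 and 73.8 CPM in NC and 62.1, 66.6 and 63.9 CPM in ORF-Flag. All ORF-Flag values lay below all NC values, but the lowest NC library, replicate 1, was just above the highest ORF-Flag library, replicate 2. The mean of NC was 72.2 ± 4.72 CPM (SD, n = 3) and that of ORF-Flag 64.2 ± 2.24 CPM (SD, n = 3). This is a log2 fold change of -0.18 with a standard error of 0.05 and a 95% interval of 0.826-fold to 0.949-fold (edgeR quasi-likelihood test, Benjamini-Hochberg adjusted p = 0.0365). The call was lost with DESeq2 (adjusted p = 0.0532) and in 4 of the 6 fits on 5 libraries, with edgeR adjusted p of 0.203 without NC replicate 2 and 0.179, 0.0527 and 0.138 without ORF-Flag replicates 1, 2 and 3. Over all alternatives the adjusted p lay between 0.00215 and 0.203, and each of them gave a negative log2 fold change. GCLC (chr6:53497341-53616970, minus strand) had 140.4, 145.4 and 146.2 CPM in NC and 134.5, 134.3 and 141.2 CPM in ORF-Flag. Here 2 ORF-Flag libraries lay below all NC libraries and ORF-Flag replicate 3 lay between them, so the groups overlapped. Its log2 fold change was -0.08 (standard error 0.04, edgeR unadjusted p = 0.049, adjusted p = 0.27). In the annotation 529 exonic bases of GCLC overlap AL033397.1 on the same strand, and reads from these bases could have been dropped or split.

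The log2 ratio of GCLC to GCLM counts, which library scaling does not affect, was 1.07, 0.94 and 0.99 in NC and 1.115, 1.01 and 1.14 in ORF-Flag. The groups overlapped, and the difference of 0.09 between their means had a two-sided exact permutation p of 0.20 (0.30 after adjustment over 3 ratios), where 0.10 is the smallest that 3 libraries against 3 allow. With so few libraries the test could not have passed 0.05, so it does not show whether the ratio differs. The genes whose pattern over the 6 libraries was nearest to that of GCLM, by the root mean square difference of mean-centred log2 CPM, were TP53BP1 at 0.0324, SNX10 at 0.0336 and DDHD1 at 0.0338, where the median over 12385 genes was 0.135.

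**Figure D2:**
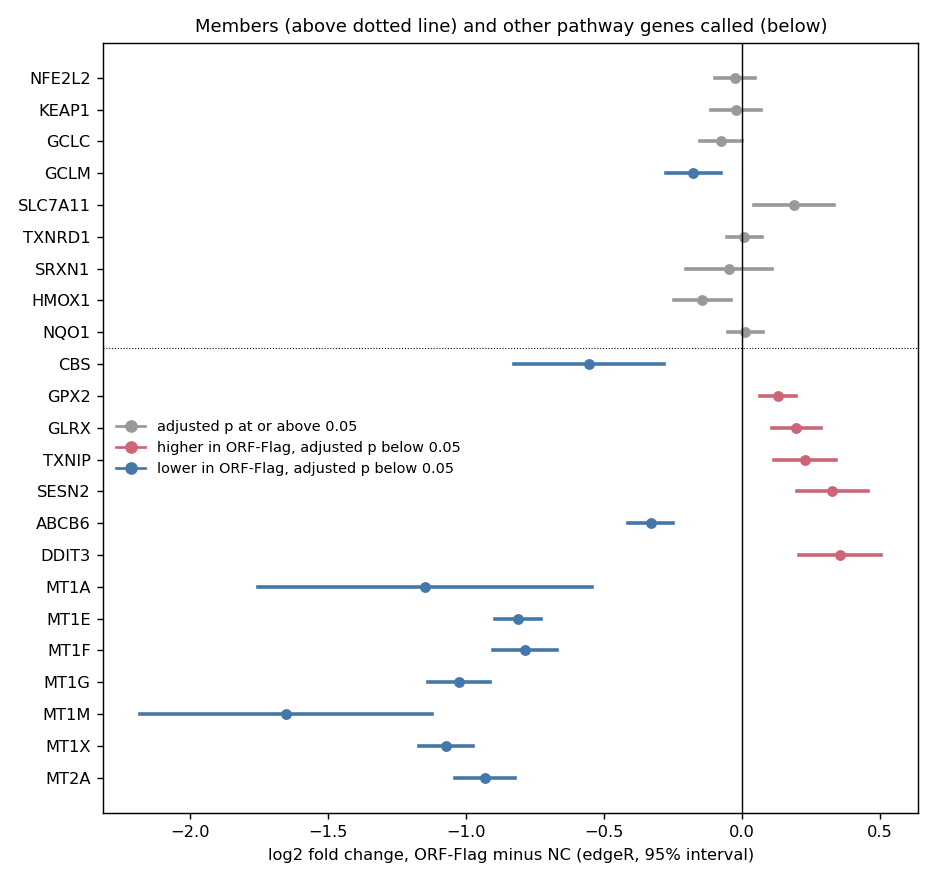
Log2 fold change of ORF-Flag over NC with its 95% interval from edgeR, for the 9 members above the dotted line and the 14 reported genes of the other pathway lists with an adjusted p below 0.05 below it. Among the members, 1 interval belongs to a called gene, GCLM at -0.18, and the metallothionein genes reach from -0.79 for MT1F to -1.65 for MT1M.

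SLC7A11 (chr4:138164097-138242349, minus strand) encodes the light chain of the cystine importer xCT, which supplies cysteine for glutathione, and it was the only member with a higher value in every ORF-Flag library. It had 16.6, 17.4 and 17.3 CPM in NC and 18.7, 19.2 and 20.7 CPM in ORF-Flag. The groups did not overlap, and ORF-Flag replicate 3 was the highest. Its log2 fold change was 0.19 (standard error 0.07, 95% interval 1.03-fold to 1.26-fold, edgeR unadjusted p = 0.012), and it did not pass the adjustment over all tested genes (adjusted p = 0.13), nor did it in any alternative, where the adjusted p lay between 0.103 and 0.471. With 334 to 560 counts per library, SLC7A11 was among the members with the fewest counts. Its exons overlap those of SLC7A11-AS1 on the other strand by 865 bases, and the strand setting of the counting is not given in the sources used here, so reads of the pair cannot be told apart. Its partner in the importer, SLC3A2, had 258 to 269 CPM in NC and 252 to 259 CPM in ORF-Flag (log2 fold change -0.04, edgeR adjusted p = 0.58). In a library, the log2 ratio of SLC7A11 to SLC3A2 counts was -4.02, -3.89 and -3.92 in NC and -3.80, -3.74 and -3.60 in ORF-Flag. All ORF-Flag ratios lay above all NC ratios, and the difference of 0.23 had a two-sided exact permutation p of 0.10, the smallest possible, and 0.30 after adjustment over 3 ratios.

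Of 39 genes of the wider glutathione system, 35 were tested, 2 rose and 1 fell, beside 2.47% and 1.98% of all tested genes, with a median log2 fold change of -0.02. At an unadjusted p below 0.05 there were 10, with 4 higher and 6 lower, beside 18.5% of all tested genes. All ORF-Flag libraries lay below all NC libraries in 9 genes, beside 10.9% of all tested genes, and above them in 2, beside 11.5%. GPX2, a glutathione peroxidase and the most abundant gene of the list, had 664, 663 and 681 CPM in NC and 752, 726 and 719.9 CPM in ORF-Flag. The groups did not overlap, and the log2 fold change was 0.13 with a standard error of 0.03 (edgeR adjusted p = 0.017), a call lost without NC replicate 2 or any of the 3 ORF-Flag libraries (highest adjusted p = 0.114). GLRX, a glutaredoxin that reduces glutathionylated proteins, rose from 90.9 ± 3.52 CPM to 104.4 ± 5.21 CPM (mean and SD, n = 3 per group), which is a log2 fold change of 0.20 with a standard error of 0.04 (edgeR adjusted p = 0.0080), a call that ended when NC replicate 2, ORF-Flag replicate 2 or ORF-Flag replicate 3 was left out (adjusted p up to 0.0739). CBS, which starts the conversion of homocysteine to cysteine, had 38.8, 21.7 and 26.2 CPM in NC and 16.5, 20.7 and 21.4 CPM in ORF-Flag. NC replicate 1 was the highest of these libraries and ORF-Flag replicate 1 the lowest, and NC replicate 2 lay close to the ORF-Flag values. CBS had a log2 fold change of -0.55 with a standard error of 0.13 (edgeR adjusted p = 0.015), and without NC replicate 1 the change shrank to -0.31 (adjusted p = 0.0431). The call ended with DESeq2 (adjusted p = 0.312) or with ORF-Flag replicate 1 left out (adjusted p = 0.103), and 95.3% of the 31-base stretches of the CBS transcript also occur in another gene, most often in CBSL, so its counts are uncertain. GSS, which joins glycine in the last step of glutathione synthesis, had 133.5 to 140.3 CPM in NC and 127.5 to 132.0 CPM in ORF-Flag, with a log2 fold change of -0.06 (edgeR adjusted p = 0.39).

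TXNRD1 and SRXN1, which recycle oxidized thioredoxin and overoxidized peroxiredoxins, did not pass the test. TXNRD1 (chr12:104215779-104350305, plus strand) had 660, 678 and 672 CPM in NC and 669, 681 and 673 CPM in ORF-Flag. The groups overlapped, with the lowest library in NC and the highest in ORF-Flag, and the log2 fold change was 0.01 (standard error 0.03, 95% interval -0.05 to 0.07, edgeR adjusted p = 0.92). SRXN1 (chr20:646615-653370, minus strand) had 32.2, 26.2 and 24.8 CPM in NC and 26.6, 26.02 and 27.3 CPM in ORF-Flag. NC replicate 1 stood above the other 5 libraries, which lay between 24.8 and 27.3 CPM. The log2 fold change was -0.05 (standard error 0.08, edgeR adjusted p = 0.81) and turned to 0.07 without NC replicate 1 (adjusted p = 0.67). Of the 2698 exonic bases of SRXN1, 2292 overlap AL121758.1 on the same strand, which had 8 to 20 counts per library beside 453 to 743 for SRXN1, and reads from these bases could have been dropped or split in the counting.

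Of 20 other genes of the thioredoxin system, 19 were tested, 2 rose and 0 fell, beside 2.47% and 1.98% of all tested genes, with a median log2 fold change of -0.04; 5 had an unadjusted p below 0.05, 3 higher and 2 lower, beside 18.5% of all tested genes, and DESeq2 and limma also called 0 lower. TXNIP, the inhibitor of thioredoxin, had 36.4, 34.6 and 35.2 CPM in NC and 42.8, 39.01 and 42.3 CPM in ORF-Flag. The groups did not overlap, and the log2 fold change was 0.23 with a standard error of 0.05 (edgeR adjusted p = 0.015), a call that ended when NC replicate 2, ORF-Flag replicate 1 or ORF-Flag replicate 3 was left out (adjusted p up to 0.0936). SESN2, a stress-inducible sestrin, rose from 23.6 ± 1.30 CPM to 29.5 ± 0.715 CPM (mean and SD, n = 3 per group), which is a log2 fold change of 0.33 with a standard error of 0.06 (edgeR adjusted p = 0.0027), and this call held with each library left out in turn (highest adjusted p = 0.0247). TXN, thioredoxin itself, had 357.5 to 393.6 CPM in NC and 373 to 398 CPM in ORF-Flag, with a log2 fold change of 0.04 (edgeR adjusted p = 0.59). PRDX1, the most abundant peroxiredoxin, had 1691 to 1752 CPM in NC and 1659 to 1689 CPM in ORF-Flag, with a log2 fold change of -0.04 (edgeR adjusted p = 0.52).

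HMOX1 (chr22:35380361-35394214, plus strand), the inducible heme oxygenase that opens the heme ring, was lower in every ORF-Flag library but did not pass the test. It had 58.7, 56.9 and 54.7 CPM in NC and 52.0, 53.9 and 48.6 CPM in ORF-Flag. The groups did not overlap, and the gap between NC replicate 3 and ORF-Flag replicate 2 was smaller than the spread within either group. The log2 fold change was -0.14 (standard error 0.05, 95% interval 0.844-fold to 0.973-fold, edgeR unadjusted p = 0.0085, adjusted p = 0.11). The adjusted p lay between 0.0422 and 0.448 over the alternatives, and the threshold was passed only without NC replicate 3.

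Of 19 genes of heme synthesis, heme breakdown and ferritin, all were tested, 0 rose and 1 fell, beside 2.47% and 1.98% of all tested genes, with a median log2 fold change of -0.04; 4 had an unadjusted p below 0.05, all lower, beside 18.5%, and DESeq2 and limma also called 0 higher. A positive log2 fold change was found for 3 of the 19, beside 6131 of all 12386 tested genes, and in the other lists for 11 of 20 partners and regulators, 13 of 35 glutathione genes, 7 of 19 thioredoxin genes, 5 of 18 in detoxification, 4 of 13 in superoxide and peroxide removal and ferroptosis, 4 of 16 in the ATF4 response and 1 of 9 in the metal response. In 7 genes of the heme list all ORF-Flag libraries lay below all NC libraries, beside 10.9% of all tested genes, and in 0 above them, beside 11.5%. ABCB6, a porphyrin transporter, had 136.3, 130.4 and 130.7 CPM in NC and 107.5, 109.0 and 99.7 CPM in ORF-Flag. The groups lay well apart, and ABCB6 fell by 0.33 on the log2 scale with a standard error of 0.04 (edgeR adjusted p = 1.1e-05), a call that held with each library left out in turn (highest adjusted p = 0.000434). Of its 5234 exonic bases, 2864 overlap AC068946.2 on the same strand, which had 0 counts in every library, so reads from these bases could have been dropped from both. BLVRA, which reduces the biliverdin that heme oxygenase forms, had a log2 fold change of -0.03 (edgeR adjusted p = 0.81). The ferritin genes FTH1 and FTL, which store the iron released from heme and are NRF2 targets themselves, had log2 fold changes of -0.02 (edgeR adjusted p = 0.74) and 0.03 (edgeR adjusted p = 0.66). FTL was the most abundant gene of the list at 5383 to 5637 CPM, and 50.8% of the 31-base stretches of FTH1 and 33.2% of those of FTL occur in other genes, their pseudogenes among them.

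NQO1 (chr16:69706996-69726951, minus strand), a quinone reductase often used as a readout of NRF2, had 1112, 1114 and 1165 CPM in NC and 1134, 1147 and 1141 CPM in ORF-Flag. The ORF-Flag values lay within the range of the NC values, whose highest library was replicate 3. The log2 fold change was 0.01 (standard error 0.03, edgeR adjusted p = 0.88), and its 95% interval of 0.965-fold to 1.06-fold was among the narrowest of the members. The exons of NQO1 overlap AC092115.2 on the other strand by 575 bases, and the limit given for SLC7A11 applies here too. Of 21 other NRF2 targets in detoxification, 18 were tested and 0 passed an adjusted p below 0.05 in edgeR, DESeq2, limma-trend or limma-voom, with a median log2 fold change of -0.02 and 4 genes at an unadjusted p below 0.05 in edgeR, all of them higher, beside 18.5% of all tested genes in either direction. AKR1C1, an aldo-keto reductase and the most abundant of them, had 1834 to 2210 CPM in NC and 2084 to 2193 CPM in ORF-Flag, so the groups overlapped (log2 fold change 0.10, edgeR adjusted p = 0.25). Over the 6 fits with 1 library left out its log2 fold change ran from 0.03, without NC replicate 1, to 0.17, and the test was passed in 1 of these fits. In its transcript 35.5% of the 31-base stretches occur in another gene, most often in AKR1C2, so counts could have been split between them.

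Of 16 genes of superoxide and peroxide removal and ferroptosis, 13 were tested and 0 passed the edgeR test, DESeq2 or limma, with a median log2 fold change of -0.02 and 1 gene at an unadjusted p below 0.05, on the higher side, beside 18.5% of all tested genes. NCOA4, the receptor for ferritin breakdown and the most abundant of them, lay between 546 and 574 CPM over the 6 libraries (log2 fold change -0.01, edgeR adjusted p = 0.91). ATF4 controls SLC7A11 and several other genes beside NRF2. Of 16 genes of the ATF4 amino acid response, all were tested, 1 rose and 0 fell, beside 2.47% and 1.98% of all tested genes, with a median log2 fold change of -0.03; 4 had an unadjusted p below 0.05, 1 higher and 3 lower, beside 18.5%, and DESeq2 and limma also called 0 lower. DDIT3, the stress factor CHOP, had 17.6, 17.1 and 17.8 CPM in NC and 20.4, 24.2 and 22.9 CPM in ORF-Flag. The groups did not overlap, and the log2 fold change was 0.36 with a standard error of 0.07 (edgeR adjusted p = 0.0047), a call that held with each library left out in turn (highest adjusted p = 0.0373). On the same strand 105 exonic bases of DDIT3 overlap AC022506.1, which had 34 to 67 counts per library, so reads could have been dropped or split. On the other strand MARS overlaps 355 and MBD6 58 of the 1307 exonic bases of DDIT3, and the limit given for SLC7A11 applies here too. ATF4 itself, the most abundant gene of its list, had 399.7 to 401.3 CPM in NC and 400.1 to 426.6 CPM in ORF-Flag (log2 fold change 0.05, edgeR adjusted p = 0.44).

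The metal response list, whose metallothioneins bind zinc and copper and also scavenge oxidants, had the median farthest from 0 of the pathway lists. Of 10 genes, 9 were tested, 0 rose and 7 fell, beside 2.47% and 1.98% of all tested genes, with a median log2 fold change of -0.93; 8 had an unadjusted p below 0.05, all lower, beside 18.5%, and DESeq2 and limma also called 0 higher. The 7 genes were MT1A, MT1E, MT1F, MT1G, MT1M, MT1X and MT2A, and 2 of them, MT1A and MT1M, received no adjusted p from DESeq2. MT2A, the most abundant, had 292.8, 290.9 and 244.2 CPM in NC and 138.2, 155.1 and 141.8 CPM in ORF-Flag. The groups lay far apart, with NC replicate 3 the lowest of its group, and MT2A fell by 0.93 on the log2 scale with a standard error of 0.05 (edgeR adjusted p = 6.8e-12). MT1A, at 6 to 52 counts per library, did not pass when NC replicate 3, ORF-Flag replicate 2 or ORF-Flag replicate 3 was left out (adjusted p up to 0.117), and the calls of the other 6 held with each library left out in turn. Over these 7 genes the share of 31-base stretches that occur in another gene ran from 2.27% in MT1F to 23.2% in MT1E, which shares most with MT1JP, so counts could have been split. MT1X, at 17.9%, shares most with AC026461.1, which overlaps it on the same strand by 321 bases. MTF1, the zinc-sensing factor that drives these genes, had a log2 fold change of 0.07 (edgeR adjusted p = 0.71), and the zinc exporter SLC30A1 of -0.09 (edgeR adjusted p = 0.24); these last genes are named as the remainder of the tested list, after their values were seen. Over the pathway lists reported here, whose numbers of tested genes are given with each, 5 genes rose and 9 fell. Of all tested genes 2.47% rose and 1.98% fell, and 7 of the 9 were the metallothioneins above. The count of genes that rose became 3 without NC replicate 2 or ORF-Flag replicate 1 or 2, and 2 without ORF-Flag replicate 3. For the genes that fell, the fits without 1 library are described with each gene.

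**Figure D3:**
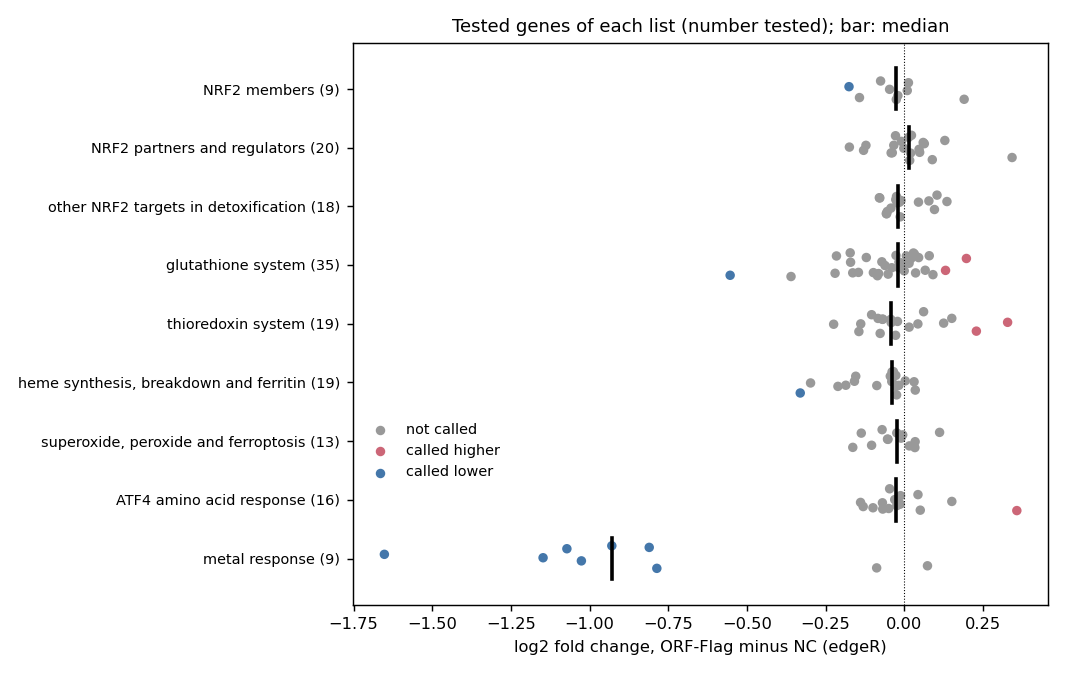
Log2 fold change of ORF-Flag over NC for each tested gene of the member list and 8 pathway lists (points), with the median of each list (bar) and the number tested in parentheses. The medians of the lists lie between -0.04 and 0.02 apart from the metal response, at -0.93.

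Per kilobase of annotated exon, the members spanned a wide range of levels in both groups. Over the 6 libraries NQO1 had a mean of 349 CPM per kilobase, above 99.3% of tested genes. NFE2L2 at 102.8 and TXNRD1 at 100.2 CPM per kilobase followed, and their ranges over the libraries overlapped, so their order is not resolved at this length. HMOX1 had 22.5, KEAP1 18.2, GCLC 16.2 and GCLM 12.6 CPM per kilobase, and these neighbours did not overlap. The range of SRXN1, with a mean of 10.1 CPM per kilobase, overlapped that of GCLM. SLC7A11 was the lowest at 1.90 CPM per kilobase, above 29.5% of tested genes, and did not overlap any other member. With the length of the longest transcript in place of all annotated exons, GCLC moved from rank 6 to 4, HMOX1 from 4 to 5 and KEAP1 from 5 to 6, and NFE2L2 at 215.3 and TXNRD1 at 157.1 CPM per kilobase stood further apart, so levels and order depend on the length used.

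**Figure D4:**
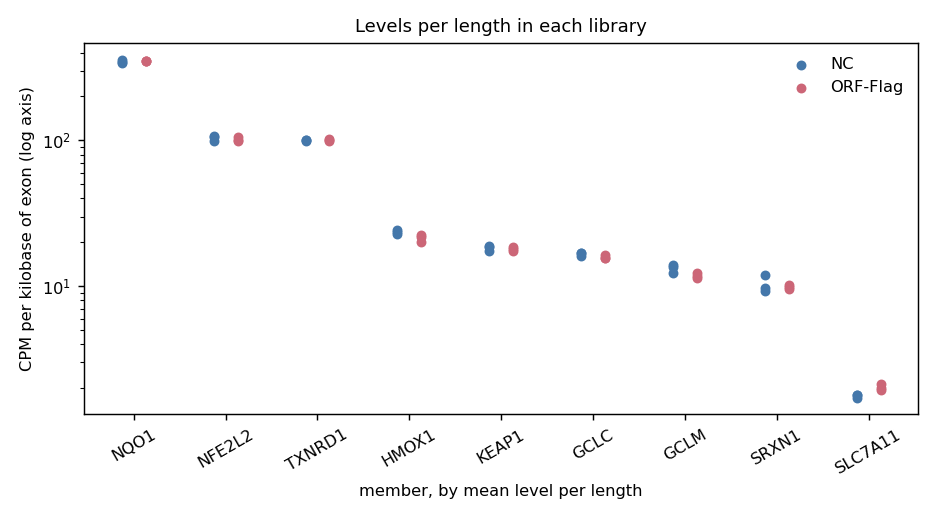
CPM per kilobase of annotated exon (log axis) of each member in each of the 3 NC and 3 ORF-Flag libraries, ordered by the mean over the 6 libraries. The order runs from NQO1, with a mean of 349, to SLC7A11, with 1.90, and the separation of the groups within a gene is small against the range between genes.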

How the data were processed

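RNA was extracted with TRIzol, and libraries were made with the VAHTS universal V10 kit. The file the authors deposited holds counts of reads on each gene, without normalization. The submitters' processing notes name cutadapt 1.11, HISAT2 2.1.0, featureCounts 1.6.0, edgeR and GRCh38, without roles. The strand setting and the annotation release are not given in the sources used here, and 20421 of 20422 identifiers were matched to a symbol.

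From the counts, edgeR 4.0.16 in R 4.3.3 was run with filterByExpr (12386 genes kept), TMM factors, glmQLFit, glmQLFTest and Benjamini-Hochberg adjustment, without covariates. Standard errors and 95% intervals were derived from the quasi-likelihood F statistic. The common biological coefficient of variation was 0.0389. Chi-square tests of libraries within a group gave 2.39 to 5.23 per degree of freedom, so no pair agreed within sampling noise. Exon lengths, overlaps and shared 31-base stretches came from GENCODE v29 on GRCh38, and promoters from RefSeq (GRCh38.p14). Figures were drawn with matplotlib 3.10.9. The tools were tested on simulated data, and the outcome is not reported here.

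The members and the lists were chosen with earlier results of these data known. Named genes are the members, list genes with an adjusted p below 0.05, the most abundant gene of each list, the 3 genes nearest in pattern to a called member, and GSS, SLC3A2, TXN, CUL3, MAFG, BACH1, BLVRA and FTH1. Outside this rule, MTF1 and SLC30A1 were named after their values were seen, and ALB, DCN, KDR, TEK, PTPRC and CD3E in the marker check. Genes that overlap a named gene or share sequence with it are also given. The lists were written from general knowledge, and TRIM16L and GSTT1 were not analysed here. After the analysis, 1 gene covered by this rule was taken out of the NADPH supply list with its values known, so neither it nor that list is reported here. Alternatives were DESeq2 1.42.0, limma-trend and limma-voom (limma 3.58.1), no TMM factors, DESeq2 size factors, no low-count filter, a minimum of 10 counts per library, the replicate number as a block, a fold change above 1.2 with an unadjusted p below 0.05, each library left out in turn, and another gene length.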

Additional observations from a re-analysis of the deposited data

How the results depend on the processing

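With the tool, normalization or filter changed, the 306 genes higher and 245 lower in ORF-Flag stayed within 1.5 times of these counts, except that 414 were lower without a filter on low counts, where 16367 genes were tested. With each library left out in turn, 131 to 502 genes were higher and 68 to 556 lower, 0 to 2 members were lower, and 2 to 7 genes of the other pathway lists reported here were higher. In these lists 9 genes were lower in the main comparison, and their fits without 1 library are described with each gene above. The count of members lower, 1 in the main comparison, was 0 with DESeq2, where GCLM had a log2 fold change of -0.18 and an adjusted p of 0.0532, and 0 at a fold change above 1.2, which GCLM does not reach. No setting called a member higher. Over the fits without 1 library the log2 fold change was -0.22 to -0.14 for GCLM, -0.17 to -0.10 for HMOX1, -0.0015 to 0.0176 for TXNRD1 and -0.12 to 0.0664 for SRXN1, and the last pair changed sign without NC replicate 1; the cause was not tested. With the longest transcript as length, GCLC ranked 4, HMOX1 5 and KEAP1 6. Replicate numbers were not used to pair the libraries in the main fit. Same-numbered libraries of the groups had correlated deviations of r = 0.07, 0.03 and 0.04 across genes, and the other combinations lay between -0.078 and 0.030. Of 6 libraries, 5 correlated best with their own number, a hint from the data and not the design. These small values do not settle whether the numbers pair the libraries. With a replicate block, 387 genes were higher and 344 lower, 731 in all, of which 550 were among the 551 called without it, and GCLM remained the only member called (log2 fold change -0.17, adjusted p = 0.0178). SLC7A11 (334 to 560) and SRXN1 (453 to 743) had the fewest counts of the members and the largest standard errors, 0.07 and 0.08; a link between these was not tested.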
